A study of Mus musculus with 18 samples.

Results

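The mitochondrial ribosomal protein genes were examined in quadriceps muscle of a mouse model of LAMA2-related congenital muscular dystrophy. They were taken as the protein-coding genes of the deposited library tables whose symbol is Mrpl or Mrps followed by a number and whose exon length is above 0, which gave 77 genes, 48 Mrpl and 29 Mrps, of 31665 genes with an exon length. By the role of their products, 50 belong to the large subunit of the mitochondrial ribosome, 26 to the small subunit and 1 to neither. Mrps18a and Mrps30 carry small-subunit symbols but encode proteins of the large subunit, and Mrps36 encodes a subunit of the 2-oxoglutarate dehydrogenase complex. Of the 76 ribosomal proteins, 47 have a bacterial counterpart and 29 occur only in mitochondria.

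RNA-seq was made from whole quadriceps of 18 mice, with 1 library per mouse. Wild type (WT) mice were C57BL/6J. The dyW mice, labelled B6.129S1(Cg)-Lama2tm1Eeng/J, carry a knock-out of Lama2, the gene of the laminin alpha 2 chain, and the labels call the mutants of the colony hemizygotes. There were 3 untreated WT and 4 untreated dyW mice with an age label of 5 weeks. In a separate cohort with an age label of 3 weeks, 3 WT and 3 dyW mice received PBS, and 2 WT and 3 dyW mice received TD139, an inhibitor of galectin-3; the protocol places tissue collection at 5 weeks for all of them. Every group held both female and male mice by the labels. Dose and duration of TD139 are not given in the labels.

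The mitochondrial ribosome translates the few proteins encoded by mitochondrial DNA, all of which are core subunits of the respiratory chain and ATP synthase. Its RNAs come from mitochondrial DNA, whereas every protein of both subunits is encoded in the nucleus, made in the cytosol and imported. In skeletal muscle, where oxidative fibres hold more mitochondria than glycolytic fibres, these genes are expressed together with the nuclear genes of the respiratory chain, and binding sites for NRF1, for the ETS factor GABP and for YY1 are common in promoters of nuclear genes for mitochondrial proteins.

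Promoter sequences from RefSeq (GRCm38.p6, the assembly that mm10 names) were available for 68 of the 77 genes, each spanning 250 bases before to 50 after an annotated start. Both strands were searched for fixed letter strings, some of which overlap, and a gene was counted if any of its promoters held a match. The NRF1 string was found in 13 genes (19.1%), against 5.2% of all 27025 genes with a promoter and 7.5% of protein-coding ones. The ETS string CCGGAAG was found in 25 genes (36.8%), against 9.9% and 13.2%, and the YY1 string in 5 (7.4%), against 1.0% and 1.5%. The Sp1 string GGGCGG was found in 34 of the 68 genes, against 38.2% and 51.1%, the E-box CACGTG in 7.4% against 8.1% and 9.1%, and TATAAA in 7.4% against 15.7% and 14.3%. The core of the element bound by ZNF143 and THAP11 was searched after the sequences had been read; it was found in 5 genes (7.4%), namely Mrpl24, Mrpl34, Mrpl42, Mrpl50 and Mrps22, against 2.1% and 3.1%. A match is only a match of letters, and NRF1 and ETS strings together covered 34 of the 68 genes, with 4 holding both. The members' promoters were also richer in the pair CG, with a median of 21.5 against 7 for all promoters and 14 for protein-coding ones. The NRF1, ETS and YY1 strings all hold CG, and the part of base composition in these shares was not tested.

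Stretches of 4 promoters are printed, 5′ to 3′ on the strand of the gene. Mrpl42, Mrpl50 and Mrps22 are shown because their transcripts fell in untreated dyW muscle on the count scale described below and because the ZNF143/THAP11 string stands in all of them, and Mrpl12 is shown as an example of the NRF1 string in a gene that was not called. Capitals mark the ZNF143/THAP11 string in the first 3, an ETS string nearer the start in Mrps22, and the NRF1 string in Mrpl12, which matches on the opposite strand.
Mrpl42, chr10:95501950-95502099, minus strand: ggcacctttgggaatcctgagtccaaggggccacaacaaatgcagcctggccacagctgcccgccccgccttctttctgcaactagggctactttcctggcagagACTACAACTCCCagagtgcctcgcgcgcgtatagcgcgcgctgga
Mrpl50, chr4:49521084-49521195, minus strand: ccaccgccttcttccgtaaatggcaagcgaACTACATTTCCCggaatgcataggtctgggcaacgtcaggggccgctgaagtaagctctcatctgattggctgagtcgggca
Mrps22, chr9:98601680-98601829, minus strand: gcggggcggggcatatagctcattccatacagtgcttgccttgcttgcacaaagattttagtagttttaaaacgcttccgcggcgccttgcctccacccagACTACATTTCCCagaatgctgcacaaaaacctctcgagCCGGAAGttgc
Mrpl12, chr11:120484487-120484636, plus strand: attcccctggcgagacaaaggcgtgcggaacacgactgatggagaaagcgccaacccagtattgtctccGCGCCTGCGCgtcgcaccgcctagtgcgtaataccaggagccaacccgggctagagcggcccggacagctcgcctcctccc
The ZNF143/THAP11 string began 45 bases before the RefSeq start in Mrpl42, 82 in Mrpl50 and 49 in Mrps22, and the NRF1 string 81 bases before the start in Mrpl12. Among the 12 members that fell in untreated dyW muscle, 10 had a promoter entry. Of these 10, 3 held the ZNF143/THAP11 string and 2 the NRF1 string, against 2 and 11 of the other 58. The ETS string was in 1 of the 10 and 24 of the 58, and the YY1 string in 2 and 3. The Sp1, E-box and TATA strings were in 5, 0 and 1 of the 10, and in 29, 5 and 4 of the 58. The ZNF143/THAP11 string was chosen after the sequences had been read, so its split only describes these genes. No split was tested.

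The 77 genes lie on 17 chromosomes, with 10 of them on chromosome 11. In GENCODE M21, 63 had the span given in the deposited tables and 55 the same exon length. Exon bases were shared with another gene by 32 members, on the opposite strand in 27, and 23 start within 1000 bases of a coding gene that runs the other way. The library kit keeps strand, but whether counting used it is not given in the sources used here, so reads of such pairs cannot be told apart.

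The libraries held 15.8 to 45.2 M exon reads each. Every member was counted in every library, with at least 160 reads and a median of 1086, and all 77 passed the low-count filter in every fit. Lama2, the targeted gene, was at 4.75 ± 0.279 RPKM (exon reads scaled to exon length and library size, by the authors; SD, n = 3) in untreated WT and at 0.707 ± 0.119 (n = 4) in untreated dyW. All 8 myofibre markers were present in every library. That goes with skeletal muscle but cannot tell quadriceps from another muscle. Untreated dyW replicates 3 and 4 stood apart within their group in the slow myosin gene Myh7, at 236 and 291 RPKM against 0.807 and 21.0 in replicates 1 and 2. WT PBS replicate 1 also stood apart, with Myh7 at 442 RPKM against 0.0638 and 0.0207 in the other 2, and with 5 Schwann cell markers summing to 586 RPKM against 47.1 and 31.9.

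Reads in the 77 genes made up 0.204% to 0.367% of the exon reads of a library. The share was 0.269%, 0.204% and 0.232% in untreated WT replicates 1 to 3 and 0.254%, 0.294%, 0.367% and 0.360% in untreated dyW replicates 1 to 4. With PBS the range was 0.254% to 0.303% for WT mice and 0.267% to 0.323% for dyW mice. With TD139 the WT libraries had 0.224% and 0.299%, and the dyW libraries 0.274% to 0.293%. The groups overlapped, and the highest 2 shares were those of the 2 untreated dyW libraries with high Myh7. Summed over the members after TMM scaling, which sets libraries level on the bulk of genes, RPKM was 1568 to 1784 in untreated WT and 1296 to 1771 in untreated dyW, which overlap as well. The ratio of summed large-subunit to summed small-subunit RPKM was nearly level, at 2.37 to 2.66 over the 18 libraries.

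**Figure D1:**
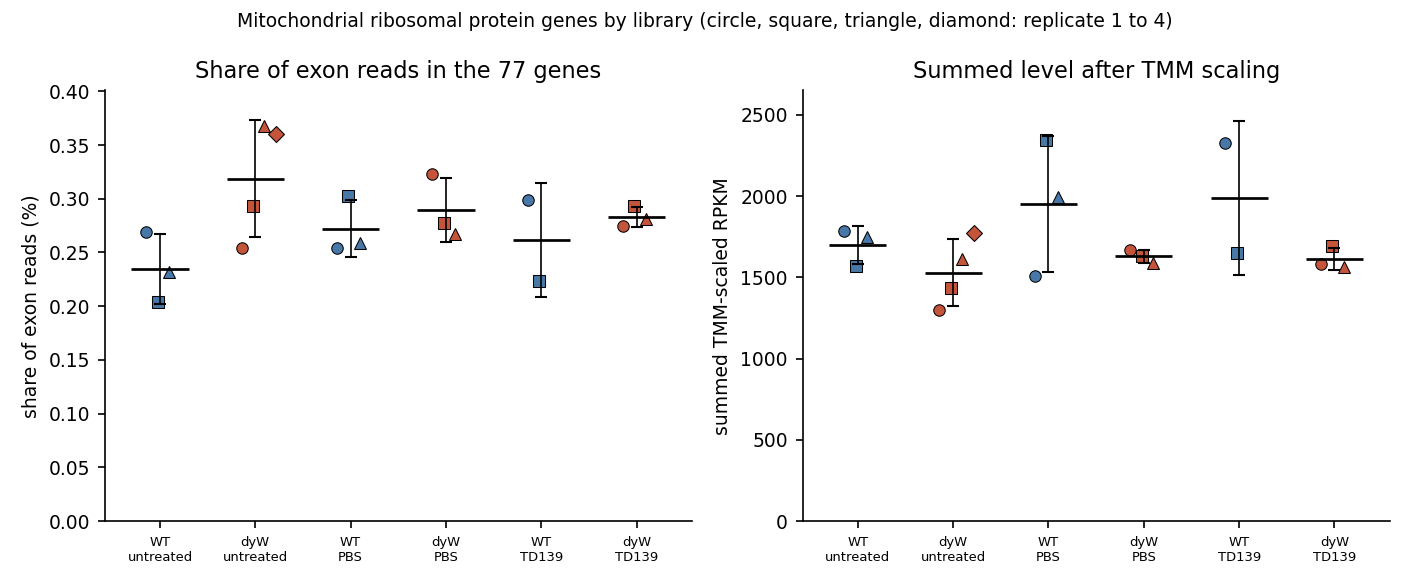
Share of exon reads in the 77 genes (left, %) and their summed TMM-scaled RPKM (right) by library, with WT in blue and dyW in red, the group mean as a bar and the SD as whiskers. Untreated dyW replicates 3 and 4 have the highest shares, at 0.367% and 0.360%, but lie within the range of the other libraries after TMM scaling.

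Levels between genes were compared per length, as RPKM. Over the 18 libraries the members' mean RPKM ran from 2.15 to 196, with a median of 16.4, and 52 of 77 lay above 10. Mrpl42, a mitochondria-specific protein of the large subunit, was the highest, at 134 to 285 RPKM, 2.45 times the next gene on average and 6.59% to 15.96% of the summed RPKM of all members. Its level rests on the deposited exon length of 666 bases, whereas the exons of Mrpl42 in GENCODE M21 cover 3682 bases. It was followed by Mrps21, a small-subunit protein, at 52.6 to 131 RPKM, and by Mrpl12, a protein of the flexible stalk that contacts translation factors, at 36.5 to 108; the ranges of these 2 overlapped. The lowest were Mrps35 at 1.23 to 3.21, Mrps25 at 2.22 to 4.2 and Mrpl19 at 2.38 to 4.22 RPKM, which overlap each other. Across the members, mean RPKM was lower where exon length was greater (Spearman rho −0.83 over 77 genes, as a description; RPKM contains the length as its divisor).

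In untreated mice, the comparison of dyW with WT asks how the dystrophic muscle differs from healthy muscle. On counts with TMM scaling, 2 of the 77 members rose (Mrps34 and Mrps35) and 12 fell (Mrpl1, Mrpl16, Mrpl19, Mrpl30, Mrpl32, Mrpl35, Mrpl42, Mrpl50, Mrps11, Mrps22, Mrps28 and Mrps31) at an adjusted p under 0.05 by edgeR, which is 18.2% of the members; 49.8% of all 14846 genes tested were called, 24.7% higher and 25.1% lower. An unadjusted p under 0.05 was reached by 16 members, against 56.8% of all genes. DESeq2 called 2 members higher and 13 lower, and 52.6% of all genes. On the deposited RPKM scale, with no TMM scaling, 40 members rose and 0 fell by limma on log2(RPKM + 0.1), where 60.1% of all genes were called, 51.4% higher and 8.71% lower, so the direction of the family depends on the scale. The members' median log2 fold change was −0.07 with TMM and 0.44 on the RPKM scale, and the median of all genes moved alike, from 0.03 to 0.51. Relative to that median the members lay at −0.11 with TMM and at −0.07 on the RPKM scale. With TMM no member had a log2 fold change beyond 1 in either direction, compared with 3947 of the 14846 genes; on the RPKM scale Mrps34 had 1.03. The TMM median of the members turned to 0.011 without untreated dyW replicate 1, was −0.0099 without replicate 2, and was −0.18 without replicates 3 and 4 together, the libraries of high Myh7. Among the 6708 genes whose mean level lay within the range of the members, 53% were called.

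**Figure D2:**
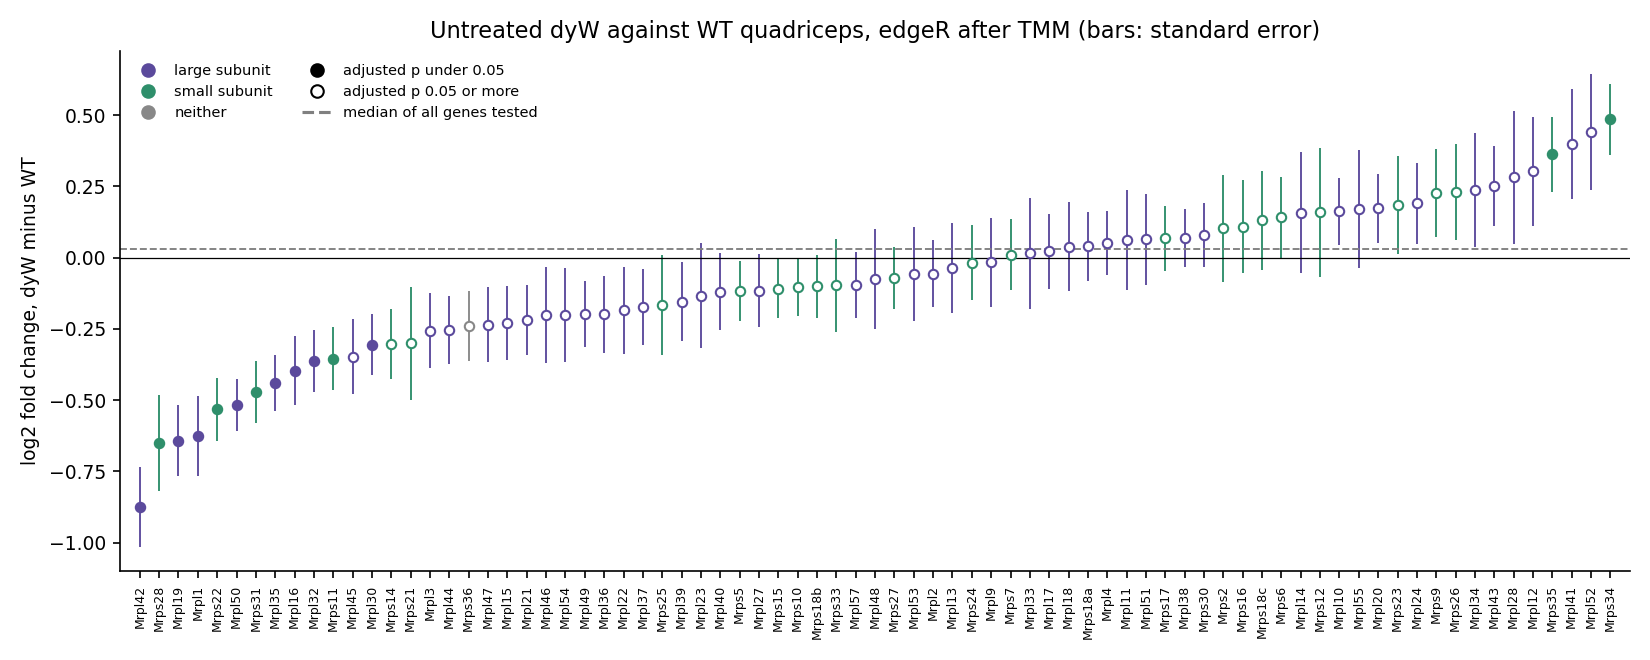
Log2 fold change of each of the 77 genes in untreated dyW minus WT by edgeR after TMM scaling, in rank order, with the standard error as bars, large-subunit genes in purple, small-subunit genes in green and Mrps36 in grey. Filled points are the 2 genes that rose and the 12 that fell, and the dashed line is the median of all genes tested, 0.03.

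The scaling factors behind this split followed genotype: the TMM factor was 0.762 to 0.890 in the 3 untreated WT libraries and 1.101 to 1.277 in the 4 dyW libraries. The 10 most abundant genes took 23.6% to 28.0% of exon reads in WT and 15.3% to 20.4% in dyW. After TMM scaling, 17 members had all 4 dyW libraries below all 3 WT libraries and 2 had them above. In RPKM 32 members had dyW above WT without overlap and 0 had it below. How many of all genes lay apart in this way was not counted, so these counts cannot be read as a trait of the members. Of all genes, 49.8% were called by edgeR with TMM and 60.1% by limma on log2(RPKM + 0.1). Relative to the median of all genes, 72 of 77 members fell on the same side on both scales, and the 14 called members kept their side.

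**Figure D3:**
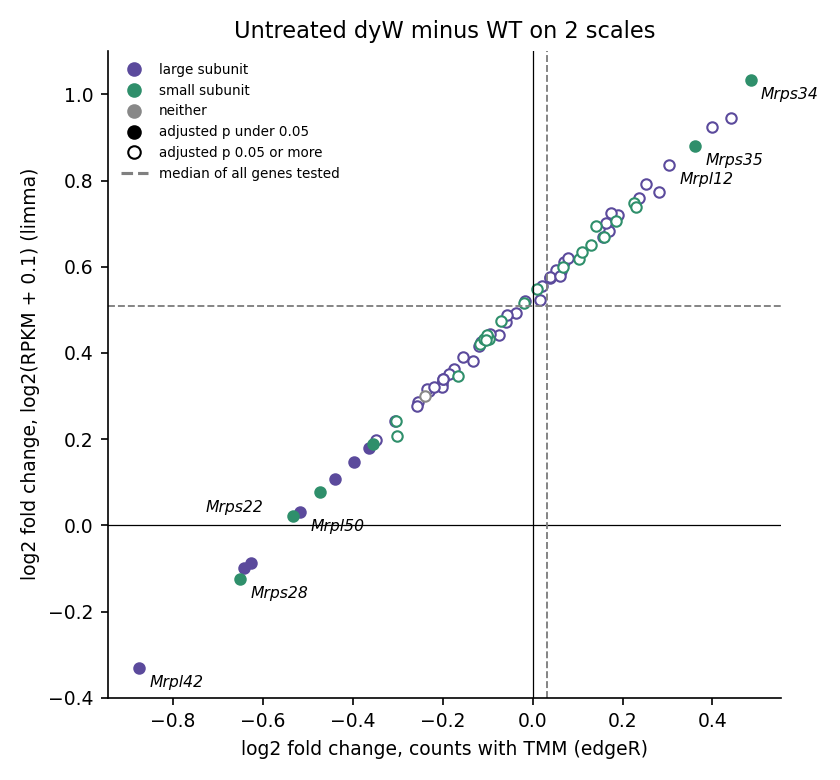
Log2 fold change of the 77 genes in untreated dyW minus WT on counts with TMM scaling (horizontal) and on log2(RPKM + 0.1) (vertical), with dashed lines at the median of all genes, 0.03 and 0.51. The points form a narrow diagonal band, so the scales differ by a shift and the order of the genes is nearly the same.

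Muscle composition differed between these groups too. Myofibre markers summed to 57862 to 70840 RPKM in untreated WT and 39595 to 49858 in dyW, and 5 of 8 fell. All 7 macrophage markers measured rose, with sums of 49.7 to 82.9 RPKM in WT and 405 to 525 in dyW, and all 5 markers of regenerating fibres rose, with sums of 5.42 to 14.2 and 139 to 244. All 5 Schwann cell markers, 4 of 8 fibroblast and 2 of 5 endothelial markers rose as well, and none of 5 adipocyte markers was called. In the PBS cohort all 7 macrophage, 4 of 5 regenerating-fibre and 1 of 8 fibroblast markers rose in dyW, and no myofibre, endothelial, Schwann cell or adipocyte marker was called. No marker of any list was at 0 in any library. In whole muscle, fewer cells of a type and less RNA per cell cannot be told apart, and the part of these shifts in the members' values was not tested.

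Mrpl42 was the member with the largest fall on the count scale. It was at 219, 161 and 197 RPKM in the WT libraries and at 149, 161, 134 and 163 in the dyW libraries. The groups overlapped in RPKM only at the lowest WT library; after TMM scaling they lay apart, at 218 to 259.6 and 106 to 143. The log2 fold change was −0.88 (SE 0.14, adjusted p = 0.00133 by edgeR), and on the RPKM scale −0.33 (adjusted p = 0.0843 by limma), below 0 on both scales. Mrpl42 (ENSMUSG00000062981) spans 95480806 to 95501927 of chromosome 10 in mm10 and lies 67.9 Mb from Lama2, which is on the same chromosome.

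Of the other large-subunit members that fell with TMM, Mrpl19, a protein with a bacterial counterpart, was at 4.60, 4.59 and 4.94 TMM-scaled RPKM in WT and at 2.56, 2.75, 3.34 and 3.29 in dyW (log2 fold change −0.64, SE 0.13, adjusted p = 0.00329). Mrpl1, whose product forms the lateral stalk at the site where tRNA leaves, was at 8.38, 7.41 and 8.47 in WT and at 4.403, 4.63, 5.52 and 6.17 in dyW on the same scale (−0.63, SE 0.14, adjusted p = 0.00615). Mrpl50, found only in mitochondria, was at 23.9, 23.8 and 24.1 in WT and at 15.98, 17.5, 16.2 and 16.5 in dyW (−0.52, SE 0.09, adjusted p = 0.00203). In all 3 genes every dyW library was below every WT library. In RPKM without TMM scaling these groups overlapped, and the log2 fold changes were −0.10, −0.09 and 0.03, none past the threshold. Mrpl35 fell by 0.44 on the log2 scale with TMM, but had 0.11 on the RPKM scale. Mrpl16, at the peptidyl transferase centre where peptide bonds form, Mrpl32 and Mrpl30 fell by 0.40, 0.36 and 0.31 with TMM, and each was above 0 on the RPKM scale, at 0.15, 0.18 and 0.24.

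Neighbouring genes were read beside these. Mrpl19 shares 1962 exon bases with Gcfc2 on the opposite strand, and Gcfc2 was at 0.372 RPKM in WT and 0.462 in dyW, against a mean of 3.70 and 3.48 for Mrpl19. Zfp189, which starts 83 bases from Mrpl50 and runs the other way, fell as well (log2 fold change −0.63, SE 0.22, adjusted p = 0.0414 with TMM). Mitd1, 66 bases from the start of Mrpl30, rose (0.74, SE 0.17, adjusted p = 0.00747), whereas Psma2, a proteasome subunit gene 75 bases from Mrpl32, was not called (0.08, adjusted p = 0.587). Genes that start next to each other thus did not all move alike.

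In the small subunit 4 members fell and 2 rose with TMM. Mrps28 was at 58.6, 52.4 and 53.7 TMM-scaled RPKM in WT and at 29.8, 28.1, 35.3 and 45.2 in dyW (log2 fold change −0.65, SE 0.17, adjusted p = 0.0120). Mrps22, a mitochondria-specific protein, was at 5.15, 4.43 and 5.53 in WT and at 3.53, 3.34, 3.42 and 3.48 in dyW (−0.53, SE 0.11, adjusted p = 0.00440). Mrps31 was at 8.73, 7.46 and 9.03 in WT and at 6.06, 6.49, 5.51 and 5.93 in dyW (−0.47, SE 0.11, adjusted p = 0.00765). The groups of each of these 3 genes lay apart after TMM scaling and overlapped in RPKM, where the log2 fold changes were −0.13, 0.02 and 0.08. The edgeR call of Mrps31 was lost without the 2 dyW libraries of high Myh7 (−0.38, adjusted p = 0.0608). Mrps11, which fell by 0.35 with TMM, was at 0.19 on the RPKM scale, and it shares 173 exon bases with Mrpl46 on the opposite strand.

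Mrps34 and Mrps35, both mitochondria-specific proteins of the small subunit, were the members that rose on both scales. Mrps34 was at 11.4, 8.48 and 11.5 RPKM in WT and at 18.96, 19.7, 24.4 and 22.7 in dyW, with no overlap. Its log2 fold change was 0.48 (SE 0.12, adjusted p = 0.0121 by edgeR) with TMM and 1.03 (adjusted p = 0.000778 by limma) on the RPKM scale. The edgeR call of Mrps34 was lost without untreated WT replicate 2 (0.38, adjusted p = 0.0513) and without the 2 dyW libraries of high Myh7 (0.43, adjusted p = 0.0546). Mrps34 shares 1309 exon bases with genes on the opposite strand and 763 on its own strand (Mapk8ip3 and Nme3), which were at 2.01 and 2.55 RPKM in WT and at 2.51 and 4.22 in dyW.

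Mrps35, the member with the lowest level, was at 1.99, 1.23 and 1.39 RPKM in WT and at 2.55, 2.78, 3.21 and 2.90 in dyW, again with no overlap. The log2 fold change was 0.36 (SE 0.13, adjusted p = 0.0472) with TMM and 0.88 (adjusted p = 0.00360) on the RPKM scale. The edgeR call of Mrps35 was lost when any of WT replicates 2 and 3 or dyW replicates 2, 3 and 4 was left out (adjusted p = 0.0674 to 0.172) and without dyW replicates 3 and 4 together (adjusted p = 0.142). With those 2 libraries left out, 0 members rose and 15 fell by edgeR with TMM, where 21.7% of genes rose and 19.6% fell, and 1 member had an unadjusted p under 0.05 in the upward direction.

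**Figure D4:**
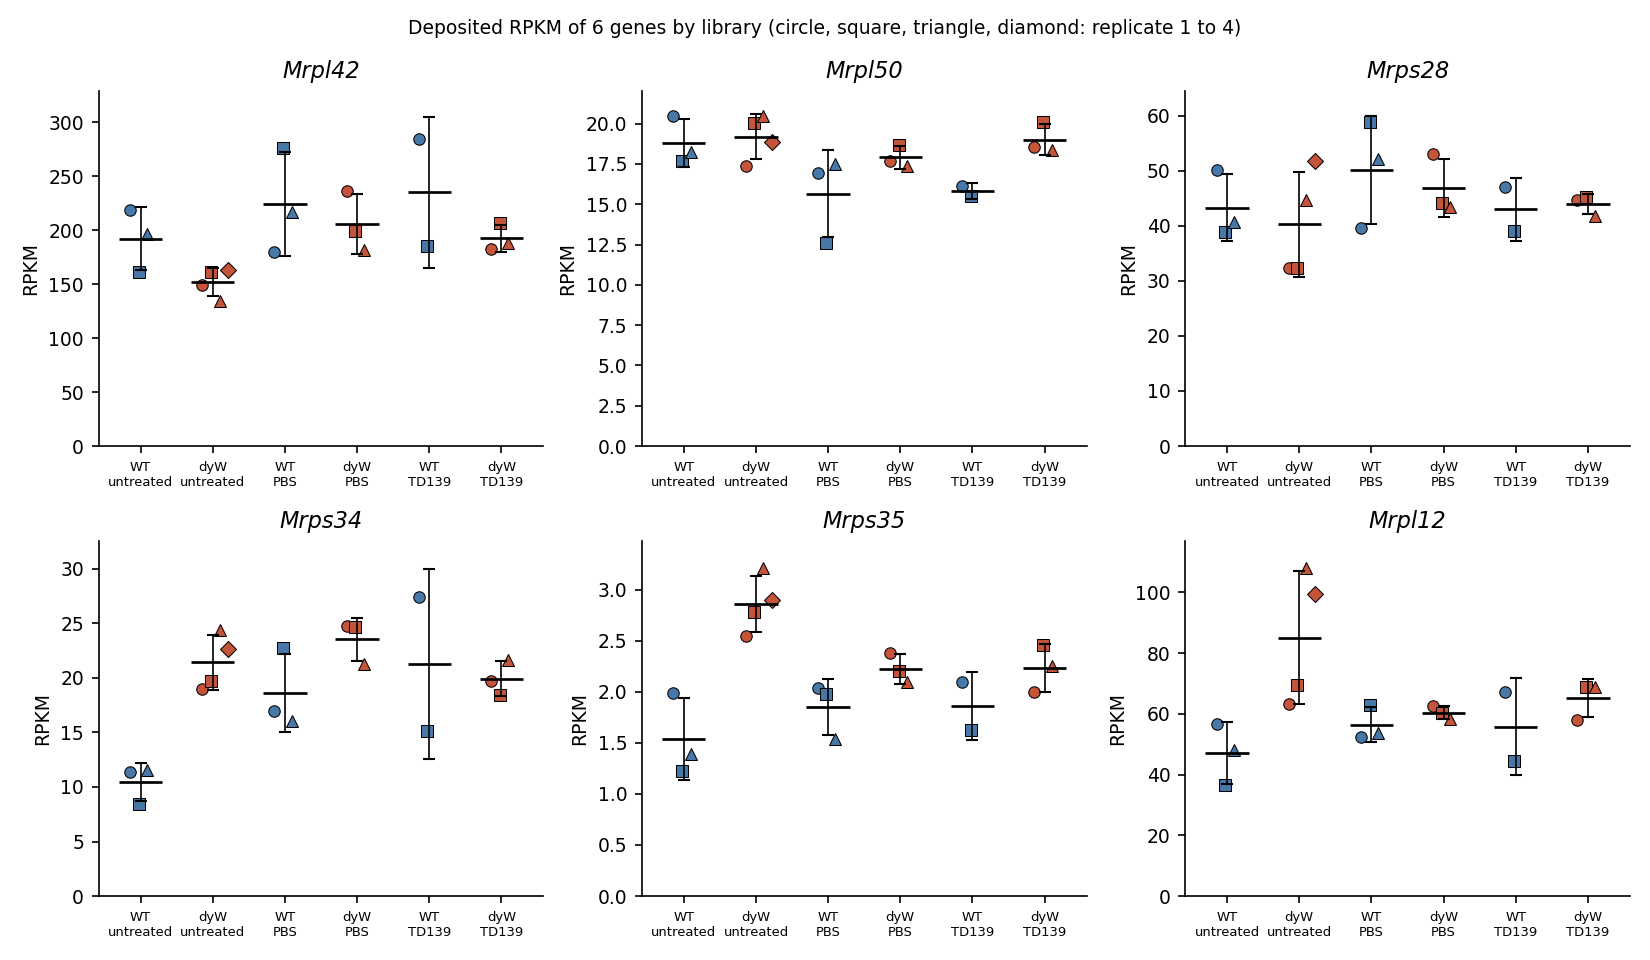
Deposited RPKM of Mrpl42, Mrpl50, Mrps28, Mrps34, Mrps35 and Mrpl12 by library in the 6 groups, with WT in blue and dyW in red, the mean as a bar and the SD as whiskers. In Mrps34, Mrps35 and Mrpl12 every untreated dyW library lies above every untreated WT library, while in the other 3 genes these groups overlap.

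Within untreated dyW muscle many members had their highest values in the same 2 libraries. In 65 of 77 members the 2 highest RPKM values of the 4 dyW libraries were those of replicates 3 and 4, and in 58 of 77 after TMM scaling. How many of all genes had this order was not counted, so it cannot be called particular to the members. Mrpl12 shows this pattern: it was at 56.8, 36.5 and 48.1 RPKM in WT, at 63.4 and 69.3 in dyW replicates 1 and 2, and at 108 and 99.3 in replicates 3 and 4. The dyW values lay above the WT values, but with TMM the log2 fold change of Mrpl12 was 0.30 (SE 0.19) and not past the threshold (adjusted p = 0.215). Mrps21 was at 52.6 and 68.3 RPKM in dyW replicates 1 and 2 and at 95.5 and 103 in replicates 3 and 4, around 59.7 to 75.4 in WT. Mrpl42 did not follow the pattern, since dyW replicate 3 was its lowest library.

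By position in the ribosome, the 3 genes of the flexible stalk and its base (Mrpl10, Mrpl11 and Mrpl12) had a median log2 fold change of 0.16 with TMM and none was called. This group leaves out Mrpl1 of the lateral stalk, which fell (−0.63, adjusted p = 0.00615 by edgeR). Of 6 genes around the exit tunnel (Mrpl17, Mrpl22, Mrpl23, Mrpl24, Mrpl45 and Mrpl47) none was called, with a median of −0.16; Mrpl45, which anchors the ribosome to the inner membrane, had −0.35 (SE 0.13, adjusted p = 0.0531). Of 5 genes grouped here as at or near the peptidyl transferase centre (Mrpl2, Mrpl3, Mrpl4, Mrpl16 and Mrpl27), Mrpl16 fell, and the median was −0.12. Mrps12, part of the decoding centre, had 0.16 (SE 0.23). Mrps18a and Mrps30 had 0.04 and 0.08, and Mrps36, which is not ribosomal, had −0.24 (SE 0.12, adjusted p = 0.135).

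The large subunit as a whole had 0 members that rose and 8 of 50 that fell with TMM (median −0.09), and the small subunit 2 and 4 of 26 (median −0.04). On the RPKM scale 23 of 50 and 17 of 26 rose and none fell. Of all genes tested, 24.7% rose and 25.1% fell with TMM, and 51.4% rose and 8.71% fell on the RPKM scale. Of the 47 proteins with a bacterial counterpart 0 rose and 8 fell with TMM, and of the 29 mitochondria-specific ones 2 rose and 4 fell. The difference between these classes was not tested.

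The surrounding pathways were read from gene lists on both scales, here and in the next paragraph. The counts stand beside shares of all genes of 24.7% higher and 25.1% lower with TMM. On the RPKM scale these shares were 51.4% higher and 8.71% lower. Of 26 genes for mitoribosome assembly, 1 rose and 9 fell with TMM (median −0.21), and 7 rose and 0 fell on the RPKM scale; Fastkd2, an RNA-binding protein of the mitochondrial matrix, had −0.81 (SE 0.10, adjusted p = 0.000441) with TMM. Of 15 mitochondrial translation factors 8 fell with TMM (median −0.30), and 4 rose on the RPKM scale. Among those that fell with TMM was Taco1, the translational activator of cytochrome c oxidase subunit I (−0.99, SE 0.16, adjusted p = 0.00128 by edgeR). Of 17 mitochondrial aminoacyl-tRNA synthetases 6 fell with TMM, and 9 rose and 1 fell on the RPKM scale. Of 14 genes for copying and transcribing mitochondrial DNA, 1 rose and 6 fell with TMM, and 5 rose on the RPKM scale; Tfb2m, a transcription initiation factor, had −0.81 (SE 0.14, adjusted p = 0.00209) with TMM. Of 5 listed mitoribosome proteins with other symbols, a list that is not complete, Ptcd3 was the 1 that fell with TMM (−0.63, SE 0.11, adjusted p = 0.00186 by edgeR).

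Of the 13 proteins encoded in mitochondrial DNA, 4 fell with TMM and 0 were called on the RPKM scale, with a median below 0 on both (−0.65 and −0.21). Of 90 tested nuclear genes of the respiratory chain and ATP synthase, 2 rose and 10 fell with TMM (median −0.07), and 28 rose on the RPKM scale (median 0.46). Cytosolic ribosomal protein genes rose on both scales, 50 of 75 with TMM (median 0.55) and 74 of 75 in RPKM (median 1.09). Of 14 regulators of nuclear genes for mitochondrial proteins, 1 rose and 3 fell with TMM, and 5 rose and 1 fell on the RPKM scale. With TMM, Ppargc1a, the coactivator PGC-1 alpha, had −1.15 (SE 0.16, adjusted p = 0.000686 by edgeR). Gabpb2, a subunit of GABP, had −0.78 (SE 0.13, adjusted p = 0.00139 by edgeR), while Max rose (0.49, SE 0.15, adjusted p = 0.0213 by edgeR). No test between the members and these lists was made.

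In the PBS cohort, none of the 77 members was called between dyW and WT by edgeR, DESeq2 or limma, while 2.68% of 15331 genes were called by edgeR, 5.64% by DESeq2 and 6.21% by limma. By edgeR 7 members had an unadjusted p under 0.05, all lower in dyW, where 15.1% of all genes had one. By DESeq2 11 members and 2499 of 15331 genes had one. By limma on log2(RPKM + 0.1) 4 members, all higher in dyW, and 3577 of 15331 genes had one. The median log2 fold change was −0.21 with TMM and 0.10 on the RPKM scale, or −0.19 and −0.15 relative to the median of all genes. Without WT PBS replicate 1, 27 members had an unadjusted p under 0.05 by edgeR, as did 3078 of 15256 genes. The members' median was then −0.32 and that of all genes 0.022. Without WT PBS replicate 2, 1 member and 2124 of 15271 genes had one, with medians of −0.079 and −0.013. The count of members was 3 without WT PBS replicate 3, against 1743 of 15313 genes. It was 4, 9 and 2 without dyW PBS replicates 1, 2 and 3, against 1604 of 15149, 1980 of 15266 and 2507 of 15274 genes. The 95% intervals of 38 members lay within a 1.5-fold difference either way. Mrpl16 was at 18.4, 18.8 and 17.8 RPKM in WT PBS and at 17.1, 15.6 and 14.7 in dyW PBS, with no overlap. These RPKM are without TMM scaling. With TMM the log2 fold change of Mrpl16 was −0.52 (SE 0.17, adjusted p = 0.153 by edgeR), and it ranged from −0.60 to −0.21 over the alternatives run. Mrpl55 was at 19.5, 25.2 and 21.1 RPKM in WT PBS and at 19.7, 18.1 and 18.3 in dyW PBS. Its log2 fold change with TMM was −0.54 (SE 0.18, adjusted p = 0.167 by edgeR), with a range of −0.69 to −0.21 over the alternatives. Upward, Mrpl43 had 0.09 (SE 0.14) and Mrps12 0.11 (SE 0.17). Without WT PBS replicate 1, the library with high Myh7 and Schwann cell genes, 2 members fell, Mrpl55 among them (−0.69, adjusted p = 0.0486), where 3.94% of genes were called. That library had the lowest summed TMM-scaled RPKM of its group, 1510 against 2346 and 1996.

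The genotype difference of the untreated mice was set against that of the PBS mice in a fit of all 18 libraries. No member passed by edgeR, DESeq2 or limma, against 1.72%, 7.54% and 0.476% of the 15771 genes. By edgeR 3 members had an unadjusted p under 0.05, against 22.7% of genes. By limma on log2(RPKM + 0.1) 22 members had one, against 3547 of 15771 genes. Among the members whose genotype difference was lower in the untreated mice, Mrpl50 had the smallest p, with a difference lower by 0.43 on the log2 scale (SE 0.17, adjusted p = 0.152), and Mrpl19 followed (−0.34, SE 0.17, adjusted p = 0.26). Mrpl55 (0.69, SE 0.28, adjusted p = 0.163) and Mrpl10 (0.38, SE 0.18, adjusted p = 0.207) went the other way. With 1 library left out, the number of members at an unadjusted p under 0.05 by edgeR ranged from 2 to 11. Over all genes that number ranged from 2667 of 15760 to 4092 of 15667. The members' median difference ranged from 0.0066 (without WT PBS replicate 2) to 0.26 (without untreated dyW replicate 1), against 0.11 with all libraries. Age label, cohort and handling differ together between these mice and cannot be told apart.

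TD139 was compared with PBS within each genotype to ask whether galectin-3 inhibition alters the muscle transcriptome. In dyW, 0 of 77 members and 0 of 15331 genes (0%) were called by edgeR, and 1 member and 3.8% of genes had an unadjusted p under 0.05. DESeq2 and limma called 0 members, and 0.0261% and 0% of genes. The members' median was −0.01 and the range −0.27 to 0.43, with 67 of the 77 intervals within a 1.5-fold difference either way. Mrpl19 was the member with the smallest p, at 2.83, 2.80 and 2.71 RPKM in dyW PBS and at 3.57, 3.82 and 3.53 in dyW TD139, with no overlap (log2 fold change 0.43, SE 0.14, adjusted p = 0.888). Mrpl3 (0.30, SE 0.15) had the next smallest p upward. Downward, Mrps10 (−0.18, SE 0.16) and Mrps12 (−0.19, SE 0.17) had the smallest p.

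In WT mice, which had 2 TD139 libraries, 0 of 77 members and 0% of genes were called by edgeR, and 0 members and 1.98% of genes had an unadjusted p under 0.05. DESeq2 and limma called 0 members, and 0.0196% and 0% of genes. The median was 0.02, and 59 intervals lay within 1.5-fold. The median was −0.20 without WT TD139 replicate 1, with 71 of 77 members below 0, and 0.17 without replicate 2, with 10 below 0. It was −0.095 without WT PBS replicate 1, 0.10 without WT PBS replicate 2 and −0.0071 with a sex term in the fit. WT TD139 replicate 1 is labelled female and replicate 2 male, so sex and replicate cannot be told apart in that group. Mrps34 was at 27.4 and 15.1 RPKM in WT TD139 and at 17.01, 22.7 and 16.1 in WT PBS (0.28, SE 0.25), so the TD139 libraries lay on either side of the PBS libraries. Mrps15 had 0.22 (SE 0.22), Mrps6 −0.25 (SE 0.20) and Mrpl41 −0.20 (SE 0.18). Whether TD139 acted differently by genotype was tested as an interaction. It was called for 0 members and 0% of genes by edgeR, with 0 members and 1.92% of genes at an unadjusted p under 0.05, and DESeq2 and limma called 0 members, and 0.00652% and 0% of genes. The intervals were wide, with 18 of 77 within 1.5-fold, and the fitted differences, dyW minus WT, ran from −0.47 for Mrps34 (SE 0.34) to 0.38 for Mrpl19 (SE 0.20). Their median was −0.0077, but 0.21 without WT TD139 replicate 1 and −0.17 without replicate 2. Mrps15 had −0.34 and Mrps9 0.31.

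Between dyW and WT mice that both received TD139, 0 of 77 members were called by edgeR, DESeq2 or limma, while edgeR called 1.04% of genes, DESeq2 4.82% and limma 3.6%. By edgeR 6 members had an unadjusted p under 0.05, all lower in dyW, against 15.9% of genes. By DESeq2 9 members, all lower, and 2599 of 15331 genes had one. By limma on log2(RPKM + 0.1) 9 members, all higher, and 3878 of 15331 genes had one. The edgeR count and the members' median rested on the 2 WT TD139 libraries. That median was 0.0048 without replicate 1 and −0.35 without replicate 2, where the median of all genes was 0.019 and 0.064. The WT library left is then assumed to vary like the other groups. Leaving out any of the dyW TD139 libraries gave 2 or 3 members at an unadjusted p under 0.05 by edgeR. Over all genes the numbers were 1828 of 15262, 1780 of 15255 and 1999 of 15246 without replicates 1, 2 and 3. The median was −0.16 with TMM and 0.18 on the RPKM scale. Mrpl16 was at 22.3 and 14.8 RPKM, without TMM scaling, in WT and at 14.6, 17.2 and 15.4 in dyW. With TMM its log2 fold change was −0.58 (SE 0.19, adjusted p = 0.158 by edgeR), and it ranged from −0.85 to −0.20 over the alternatives run. Mrps18b had −0.52 (SE 0.20, adjusted p = 0.241 by edgeR). Mrpl9 and Mrps9 had 0.21 (SE 0.16) and 0.22 (SE 0.17).

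**Figure D5:**
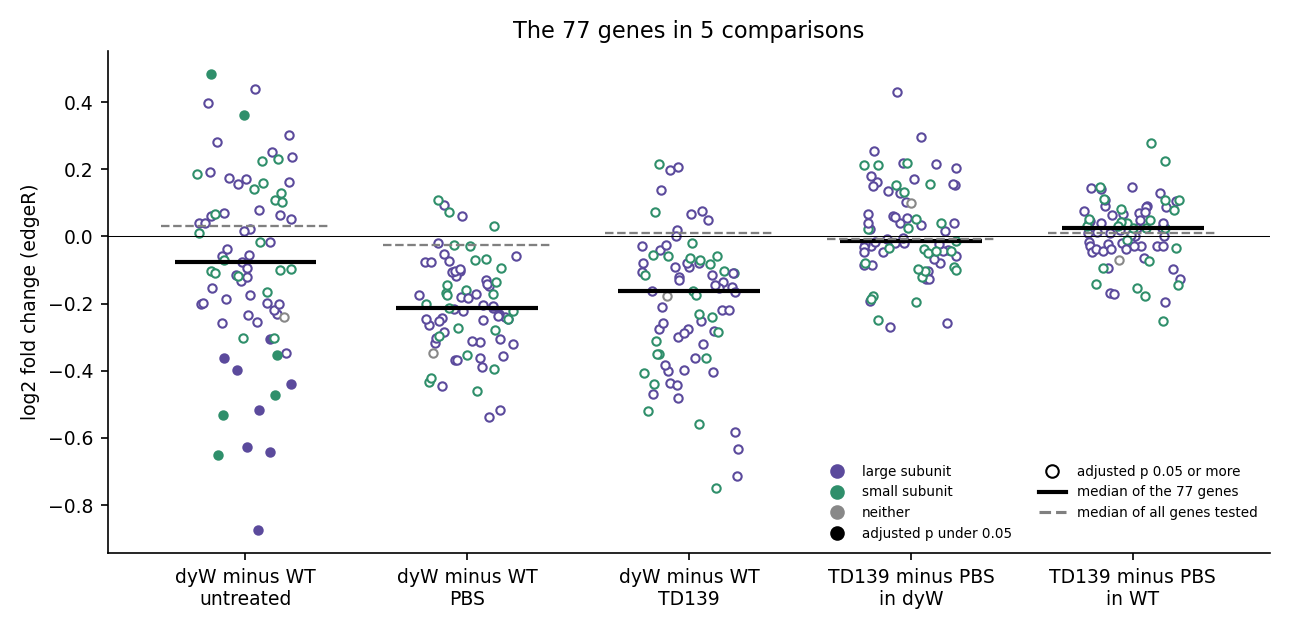
Log2 fold changes of the 77 genes by edgeR in 5 comparisons, with filled points for genes past the threshold, the members' median as a solid bar and the median of all genes as a dashed line. Filled points appear in the untreated comparison alone, and the members' medians lie at −0.07, −0.21, −0.16, −0.01 and 0.02 from left to right; comparisons that share a group of libraries are not independent.

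In the authors' deposited table of dyW against WT, 1 member was higher and 9 lower at an adjusted p under 0.05, where 32% of 22297 genes with a p-value passed. These 10 (Mrps34 higher, and Mrpl1, Mrpl16, Mrpl19, Mrpl35, Mrpl42, Mrpl50, Mrps22, Mrps28 and Mrps31 lower) were also called by edgeR in the same direction, and Mrpl30, Mrpl32, Mrps11 and Mrps35 were called by edgeR only. In the authors' deposited table of dyW TD139 against dyW PBS no member passed, the smallest adjusted p being 0.689, and 0.33% of 20602 genes did.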

How the data were processed

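Per the labels, RNA was extracted from quadriceps with TRIzol, and libraries were made with a stranded mRNA kit and read in pairs on an Illumina sequencer. The authors mapped to mm10, per the submitters' processing notes; aligner, counting tool and annotation are not given in the sources used here. The authors deposited, per library, counts of total and unique exon reads and RPKM values per gene. Their 2 deposited comparison tables hold log2 fold changes, p-values and FDR-adjusted p-values; the test behind them is not given in the sources used here. Depth was 15.8 to 45.2 M exon reads.

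Groups came from the labels, 1 library per mouse. Counts of all genes with an exon length were tested in edgeR 4.0.16 (R 4.3.3): TMM, filterByExpr with its count minimum at 10 and total minimum at 15, quasi-likelihood F-test, Benjamini-Hochberg over all genes tested, threshold 0.05. Untreated mice were fitted alone, the 4 treated groups together, and the cohort difference on all 18 libraries. Intervals are 95% from the fitted standard error. Alternatives were DESeq2 1.42.0, limma 3.58.1 on log2(RPKM + 0.1) and log2(RPKM + 1), RLE factors, no filter, unique reads, a sex term, all libraries in 1 fit and leaving out each library. The code was tested on simulated data.

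The members and gene lists were chosen with earlier results of these data known. Named are the 3 highest and 3 lowest members by mean RPKM, the members past the threshold with the smallest p (up to 8 per direction in the untreated comparison, up to 4 elsewhere), the 2 with the smallest p where none passed, members of the role groups, and up to 3 genes per pathway list by p. Mrpl30, Mrpl32, Mrps11, Mrpl45 and neighbouring genes were added after their values were seen.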

Additional observations from a re-analysis of the deposited data

How the results depend on the processing

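The count of members higher in untreated dyW muscle was 2. It went to 40 and 39 with limma on log2(RPKM + 0.1) and log2(RPKM + 1), to 0 without untreated dyW replicates 3 and 4 (an alternative chosen after seeing the data), and to 0 to 5 when 1 library was left out. The count of members lower was 12. It went to 0 on both RPKM scales, and was 8 to 11 when 1 library was left out and 8 without a low-count filter. In the PBS cohort the count lower was 0, and 0 to 2 when 1 library was left out, with 2 without WT PBS replicate 1. The counts of the TD139 comparisons and of the cohort difference stayed at 0 under all alternatives run.

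On log2(RPKM + 0.1) and log2(RPKM + 1) the sign in untreated mice turned for Mrpl35 (0.11 and 0.094), Mrpl50 (0.030 and 0.029), Mrps22 (0.021 and 0.016) and Mrps31 (0.078 and 0.068), as the median of all genes lies higher on that scale. With 1 library left out, Mrps12 in PBS mice ranged from −0.015 (without WT PBS replicate 1) to 0.21. The TD139 effect in WT ranged from −0.16 to 0.52 for Mrps15 and from −0.22 to 0.65 for Mrps34, and the interaction from −0.64 to 0.036 and from −0.84 to 0.032, each turning sign without WT TD139 replicate 1. For the libraries left out, the cause was not tested. After TMM scaling the summed RPKM of the members had a mean of 1701 in untreated WT, 1951 in WT PBS and 1990 in WT TD139 against 1339, 1589 and 1532 as deposited.

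No paired analysis was possible because each mouse has its own number and no number is shared between groups. With 2 to 4 mice per group, the median standard error of a member was 0.13 to 0.26 on the log2 scale. Every member had at least 160 reads in every library; what read depth adds to the error was not tested.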
